A study of Mus musculus with 28 samples.

Results

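Kidneys of E16.5 mouse embryos lacking Hoxa11 and Hoxd11 were compared with wild type (WT) kidneys of E13.5, an earlier stage of the normal organ. The comparison asks how far the late null kidney had moved beyond the earlier normal stage. It used the 4 kidney samples that the labels give as null E16.5 (2) or wild type E13.5 (2), of 14 in the series, and the 8 of 28 arrays on which they were measured, since every sample was run on the 2 Affymetrix mouse array designs 430A and 430B. A null sample was both kidneys of 1 embryo with targeted null alleles of both genes, with the strain not stated, whereas WT samples were pooled kidneys of CD-1 embryos. The labels name no treatment in either group. Whole kidneys were used in both groups, the same column kit gave the RNA, and 30 ng of it was amplified by 2 rounds of in vitro transcription. WT E16.5 and null E13.5 kidneys, 2 samples each, are given beside the comparison to show in which groups a difference was seen. These null and WT groups differ also in pooling and scan day, and possibly in strain, so genotype alone is not read from them. The p-values and SEs rest on the spread between replicates in every group of the series (14 arrays per design), not in these 4 samples alone. Nothing in the labels says whether the 2 WT samples of a stage came from separate pools, so that spread may not cover separate pools.

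The metanephric kidney grows as the ureteric bud branches into a mesenchyme that holds the nephron progenitors. Signals from the bud tips keep progenitors dividing and induce some of them to form renal vesicles, which become podocytes, proximal tubule, loop of Henle and distal tubule, while the bud itself becomes the collecting duct. Stromal cells and vessels grow in between and lay down matrix. Hoxa11 and Hoxd11 are homeodomain transcription factors of the mesenchyme, and mice that lack both have very small kidneys with few ureteric branches. Tubule transporters are a mark of maturing nephrons, and embryonic globins a mark of the first, yolk sac derived wave of red cells.

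The values are MAS5 signals, a linear probe set brightness that the authors scaled to an equal trimmed mean of each array. Log2 fold changes are null E16.5 minus WT E13.5 and are given with their SE from limma (n = 2 samples per group), and a gene rose or fell only where its adjusted p was under 0.05. A signal under the floor (86.1 on 430A, 147.3 on 430B) was set to the floor, so with a sample of the lower group there a log2 fold change is a bound that may understate the difference, and its SE leaves this out. At that threshold 13138 of 30620 tested probe sets (42.9%) differed between null E16.5 and WT E13.5 kidneys, 5600 (18.3%) higher and 7538 (24.6%) lower in the nulls. One probe set was read for each of 14139 genes, of which 3214 (22.7%) were higher and 2948 (20.9%) lower, with a median log2 fold change of 0.00. Of the 8886 genes read on 430A, 3922 (44.1%) were called, 2413 higher and 1509 lower, with a median of 0.17.

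Null E16.5 kidneys differed from WT kidneys of the earlier stage no less than from WT kidneys of their own stage. On 430A the median absolute log2 difference over 14576 probe sets was 0.82 between null E16.5 and WT E13.5 kidneys. It was 0.79 between null E16.5 and WT E16.5 kidneys, 0.48 between null E16.5 and null E13.5 kidneys, 0.63 between null E13.5 and WT E13.5 kidneys, and 0.55 between WT E16.5 and WT E13.5 kidneys. Replicates differed by 0.31 in null E16.5 and 0.38 in WT E13.5 kidneys. All of these group distances were thus above the replicate distances, and the null E16.5 pair was nearer to its own genotype at E13.5 than to either WT stage. On 430B these distances were 1.04 from null E16.5 to WT E13.5, 0.83 to WT E16.5 and 0.76 to null E13.5 kidneys.

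**Figure D1:**
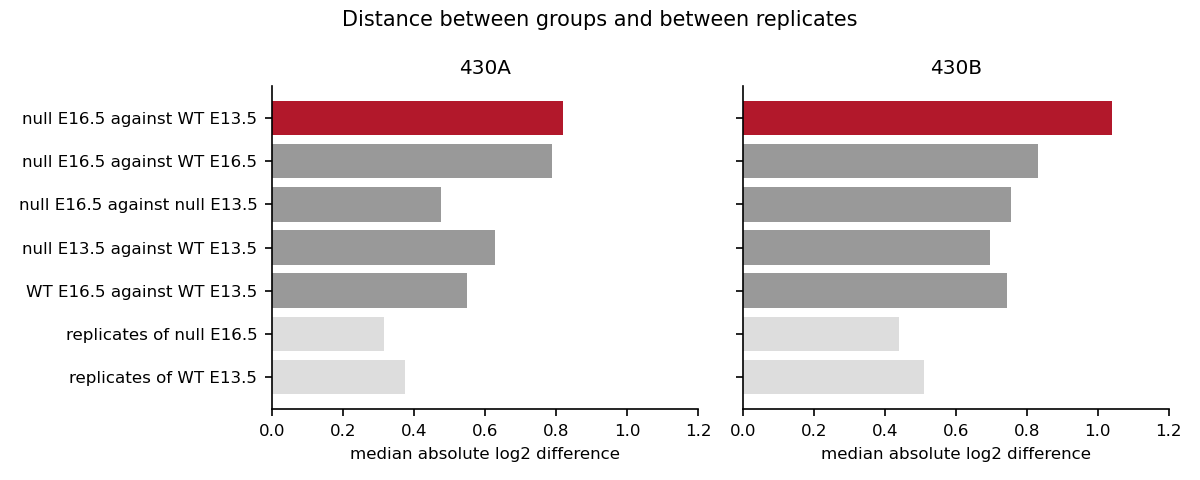
Median absolute log2 difference over the tested probe sets of 430A (left) and 430B (right) between groups (red for null E16.5 against WT E13.5, dark grey for the others) and between the 2 replicates of a group (light grey). The red bar is the longest on both designs, at 0.82 and 1.04, and the replicate bars are the shortest, at 0.31 to 0.51.

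Direction on 430B depended on how the arrays were scaled. The median log2 fold change of all tested probe sets was 0.13 on 430A and -0.61 on 430B with the deposited scaling, -0.04 on 430B after quantile normalization and 0.46 after median centring. The share of calls that were higher in the nulls was 57.9%, 51.9% and 48.1% on 430A under these 3 scalings, against 27.2%, 52.4% and 83.8% on 430B. Of the calls made by the deposited scaling on 430B, 1773 were higher and 4754 lower, and median centring gave 4380 and 848. Genes are therefore read on 430A wherever 430A has a tested probe set, genes read on 430B are marked, and a call that another scaling did not make is named as such. The 430B array median signal was 381.6 and 425.8 in the null E16.5 samples, against 753.5 and 852 in the WT E13.5 samples.

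**Figure D2:**
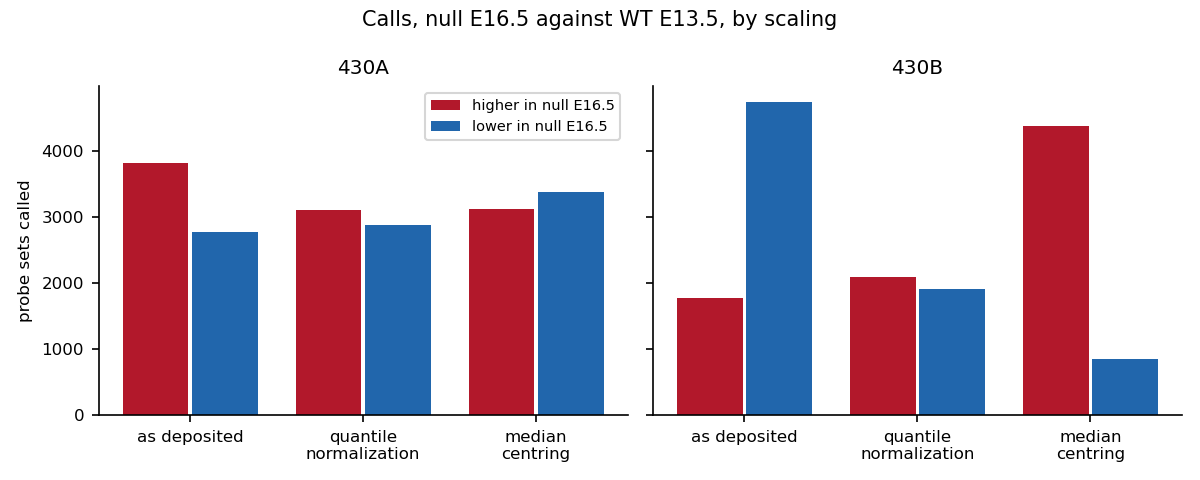
Number of probe sets called higher (red) and lower (blue) in null E16.5 than in WT E13.5 kidneys on 430A (left) and 430B (right) under the deposited scaling, quantile normalization and median centring. The 430A bars stay between 2784 and 3827, while on 430B the lower calls range from 848 to 4754.

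The null E16.5 arrays were alone on their scan day, on a scanner type that no other group used. Scan day, scanner, genotype, strain, pooling of embryos and stage therefore cannot be told apart in this comparison. The ratio of 3' to 5' actin signal, a measure of RNA and amplification quality, was 2.21 and 1.62 in the null E16.5 samples and 3.99 and 3.12 in the WT E13.5 samples on 430A, and its part in the results was not tested by more than its use as a covariate. With that covariate 8378 probe sets were called. Several probe sets were called for 1927 genes, and in 452 of them (23.5%) the calls went both ways, and such named genes are pointed out. Some genes stand on more than 1 list and are counted in each. List counts are to be read beside the shares of all genes. These were 22.7% higher and 20.9% lower in the main comparison, and 10.2% and 9.24% in WT E16.5 over WT E13.5. They were 20.8% and 15.1% in null E16.5 over WT E16.5, and 14.5% and 9.24% in null E13.5 over WT E13.5. Between null E16.5 and null E13.5 kidneys they were 8.09% and 6.44%.

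The targeted genes were read first. Hoxa11 had a signal of 211 and 216 in null E16.5 kidneys, against 2353 and 2117 in WT E13.5 kidneys. Both null samples lay far below both WT samples, and the probe set fell by 3.39 ± 0.29 on the log2 scale (adjusted p = 6.56e-06), or 10.4-fold. It was also low in null E13.5 kidneys, at 352 and 422. The probe set of Hoxd11 was under the expression filter of every group, with 272.5 and 391.4 in null E16.5 kidneys, against 415.4 and 349.7 in WT E13.5 kidneys. Those samples overlapped, and without the filter the log2 fold change was -0.22 ± 0.28 (adjusted p = 0.611). Where this probe set lies relative to the targeted change is not given in the sources used here, so it does not check the genotype.

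Proximal tubule genes showed the largest rise of any list, other than the fall of the embryonic globins. Of 30 listed genes 28 had a tested probe set, and 22 rose and 1 fell in null E16.5 kidneys, with a median log2 fold change of 3.53, beside 22.7% and 20.9% of all genes. In whole kidneys, more cells of a type and more RNA per cell cannot be told apart. Cubilin (Cubn), the endocytic receptor for filtered protein and vitamin B12 complexes, had a signal of 5351 and 2039 in null E16.5 kidneys, while both WT E13.5 samples were at the floor of 86.1, so that it was at least 38.4-fold higher in the nulls (adjusted p = 4.64e-06). Slc34a1, the sodium-phosphate cotransporter of the brush border, had 10541 and 6805 in null E16.5 kidneys, against 205 and 262 in WT E13.5 kidneys (5.19 ± 0.29, adjusted p = 5.42e-07). The groups did not overlap for either gene. For Slc34a1 the gap between them was many times the gap between replicates on the log2 scale, while the Cubn null replicates lay further apart.

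Pdzk1, a scaffold of brush border transporters, stood at 22329 and 12600.0 in null E16.5 kidneys, against 442 and 403 in WT E13.5 kidneys (5.31 ± 0.34). Slc27a2, a fatty acid transport protein and acyl-CoA synthetase, had 9895 and 3375 in null E16.5 kidneys, against 129 and 139.9 in WT E13.5 kidneys (5.43 ± 0.41). In both genes the first null replicate was clearly above the second, and both were far above either WT sample. Fbp1, a gluconeogenic enzyme, gave 14958 and 6939 in null E16.5 kidneys, against 272 and 505 in WT E13.5 kidneys (4.78 ± 0.41), and Slc22a6, the organic anion transporter OAT1, gave 3476 and 2209 in null E16.5 kidneys, against 41.1 and 70.8 in WT E13.5 kidneys, where WT kidneys were at the floor and the difference was at least 32.2-fold. The transcription factor Hnf4a, which drives proximal tubule maturation and lies outside the rule for named genes, had 11464 and 9744 in null E16.5 kidneys, against 631 and 429 in WT E13.5 kidneys (4.34 ± 0.55, adjusted p = 9.52e-05). The member that fell was Kap, an androgen-responsive protein of the mouse proximal tubule, with 551 and 469 in null E16.5 kidneys, against 1206 and 1355 in WT E13.5 kidneys (-1.33 ± 0.26, adjusted p = 0.00156). Kap and Hnf4a were chosen after their values were seen.

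The same list was read in the other contrasts. WT E16.5 kidneys had 20 of 28 proximal tubule genes above WT E13.5 and 0 below, with a median of 2.76, beside 10.2% of all genes higher and 9.24% lower. Null E16.5 kidneys had 8 above WT E16.5 and 2 below, with a median of 0.60, beside 20.8% higher and 15.1% lower among all genes. Null E13.5 kidneys had 1 above WT E13.5 and 0 below, with a median of -0.31, beside 14.5% of all genes higher and 9.24% lower. These contrasts share samples with each other. In Slc34a1, WT E16.5 kidneys had 3253 and 2686 and null E13.5 kidneys 178 and 155, and null E16.5 kidneys were above WT E16.5 by 1.52 ± 0.29 (adjusted p = 0.0018). Cubn stood at 1226 and 1212 in WT E16.5 kidneys, and the null excess was 1.44 ± 0.44 (adjusted p = 0.0212). Slc27a2 was not called between null E16.5 and WT E16.5 kidneys (0.36 ± 0.41, adjusted p = 0.523). Between the null stages, 21 of 28 were higher in null E16.5 than in null E13.5 kidneys, beside 8.09% of all genes.

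The 250 bases before the annotated start are shown for 1 of the proximal tubule genes that rose and for the embryonic globin that fell most. They come from RefSeq on GRCm38.p6, plus strand, at chr17:85028097-85028346 for Slc3a1, the amino acid transporter subunit rBAT, and at chr11:32276350-32276599 for Hba-x, the embryonic zeta globin. Capitals mark matches to the motifs searched. The motifs, on both strands, were CAAAGTCCA for HNF4, GTTAAT for the HNF1 core, AGATAA for GATA factors, CCACACCC for the CACCC box and TATAAA for the TATA box. In Slc3a1 the TATAAA and AGATAA matches that lie together share 1 base, and the pair nearest the start, 1 on each strand, share 4.
Slc3a1: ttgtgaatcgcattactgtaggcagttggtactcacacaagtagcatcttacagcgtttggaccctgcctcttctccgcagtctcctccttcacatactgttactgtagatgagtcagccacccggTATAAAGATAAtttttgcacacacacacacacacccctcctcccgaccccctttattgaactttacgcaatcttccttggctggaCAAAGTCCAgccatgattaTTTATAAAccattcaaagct
Hba-x: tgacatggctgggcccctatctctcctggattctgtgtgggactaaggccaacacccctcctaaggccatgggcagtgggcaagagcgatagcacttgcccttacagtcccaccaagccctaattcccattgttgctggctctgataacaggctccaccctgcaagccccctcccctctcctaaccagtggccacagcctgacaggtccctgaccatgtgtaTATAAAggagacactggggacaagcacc
The HNF4 letters stood in 1 of the 21 risen proximal tubule genes with a promoter in the table, that of Slc3a1, 39 to 31 bases before the start, and in 0.451% of 27025 genes. A longer HNF1 site that contains this core, searched first, stood in 0 of 21 and in 0.440% of all genes, and the core in 7 of 21 (33.3%) and 7.49%. The GATA letters stood in 6 of 21 (28.6%) and 11.4%, those of CACCC in 0 of 21 and 3.68%, and those of TATA in 4 of 21 and 14.3%. Of the embryonic globins 2 of 3 had a promoter in the table, and Hba-x held the TATA letters 28 to 23 bases before its start. A match describes letters and is not a bound site. Slc3a1 had a signal of 2065 and 1078 in null E16.5 kidneys, against 108 and 35.9 in WT E13.5 kidneys (at least 3.95 ± 0.37 with WT replicate 2 at the floor, adjusted p = 1.3e-05), without overlap, and WT E16.5 kidneys had 1473 and 1482.

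Loop of Henle and distal tubule genes rose in 10 of 16 tested and fell in 1, with a median log2 fold change of 1.30, beside 22.7% and 20.9% of all genes. Umod, uromodulin, the main protein of the thick ascending limb, had a signal of 6766 and 4431 in null E16.5 kidneys, against 148 and 149 in WT E13.5 kidneys (5.20 ± 0.30, adjusted p = 6.54e-07). Slc12a1, the NKCC2 cotransporter of the same segment, had 7429 and 7360.2 in null E16.5 kidneys, against 239 and 264 in WT E13.5 kidneys (4.88 ± 0.41, adjusted p = 5.62e-06). Slc12a1 thus rose 29.5-fold, and its replicates lay close together in both groups.
Kcnj1, the ROMK potassium channel, had 2569.6 and 1094 in null E16.5 kidneys, at least 19.5-fold above WT E13.5 kidneys, where both samples were at the floor. Cldn16, a paracellular magnesium and calcium pore, rose by 2.91 ± 0.36, Irx2, a homeobox gene of the intermediate nephron segments, by 2.30 ± 0.40, and Slc12a3, the thiazide-sensitive cotransporter of the distal convoluted tubule, by at least 4.76-fold. Pvalb, parvalbumin, which marks the early distal convoluted tubule and was chosen after its values were seen, fell, with both null samples at the floor (68.7 and 23.0 in null E16.5 kidneys, against 241 and 288 in WT E13.5 kidneys, adjusted p = 0.00231). The loop genes were high in WT E16.5 kidneys as well, with 8 of 16 above WT E13.5 and a median of 1.13, beside 10.2% of all genes. Null E16.5 kidneys had 3 above and 1 below WT E16.5 with a median of 0.37. Neither share was above that of all genes, at 20.8% and 15.1%.

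Intercalated cell genes, of the acid-base cells of the collecting duct, rose in 6 of 10 and fell in 1, with a median of 1.35, beside 22.7% and 20.9% of all genes. Rhcg, an ammonia transporter, had 1633 and 1232 in null E16.5 kidneys, against 62.0 and 90.7 in WT E13.5 kidneys and was at least 16.1-fold higher, with WT replicate 1 at the floor (adjusted p = 1.13e-05). Atp6v1b1, a proton pump subunit, had 1534 and 873 in null E16.5 kidneys, against 30.4 and 36.8 in WT E13.5 kidneys, at least 13.4-fold higher with WT at the floor, and Rhbg, the basolateral ammonia transporter, 814 and 685 in null E16.5 kidneys, against 46.4 and 41.2 in WT E13.5 kidneys, at least 8.67-fold. All null values of these genes were above all WT values. Car2, carbonic anhydrase 2, rose by 1.75 ± 0.49, and Slc26a4, pendrin, by 1.46 ± 0.47, but Car2 was not called in a fit without 1 of the samples (1.54 without null E16.5 replicate 1 and 1.26 without WT E13.5 replicate 2), nor was Slc26a4 (0.85 without null E16.5 replicate 1 and 0.86 without WT E13.5 replicate 1). Without null E16.5 replicate 1 the count that rose was 3. Aqp6, read on 430B, fell by 1.42 ± 0.35 and was not called after quantile normalization or median centring.

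Ureteric trunk and collecting duct genes rose in 10 of 20 tested and fell in 1, with a median of 1.49, beside 22.7% and 20.9% of all genes. Tfcp2l1, a transcription factor of collecting duct cells, had a signal of 12999 and 10865 in null E16.5 kidneys, against 1320.0 and 987 in WT E13.5 kidneys (3.38 ± 0.39, adjusted p = 5.06e-05). Krt19, a ductal keratin, had 3814 and 3069 in null E16.5 kidneys, against 543 and 485 in WT E13.5 kidneys (2.74 ± 0.31), and Upk3a, a urothelial plaque protein, had 1405 and 1298 in null E16.5 kidneys, against 168 and 216 in WT E13.5 kidneys (2.83 ± 0.33). None of these overlapped between groups. Gata3, a transcription factor of the ureteric lineage, rose by 2.70 ± 0.53, and Scnn1g, the gamma subunit of the epithelial sodium channel, by 2.52 ± 0.49, and their replicates differed more in WT E13.5 kidneys, at 322 and 113 for Gata3. Calb1, the calcium-binding protein calbindin of the ureteric bud and distal tubule, went the other way, with 1876 and 1098 in null E16.5 kidneys, against 6179 and 8893 in WT E13.5 kidneys (-2.37 ± 0.30, adjusted p = 0.000108). It stood at 12290.0 and 10026 in WT E16.5 kidneys, so the nulls were below both WT stages, and against WT E16.5 the difference was -2.95 ± 0.30 (adjusted p = 5.79e-05). In all, 11 of these 20 genes were higher in WT E16.5 than in WT E13.5 kidneys, with a median of 0.97, beside 10.2% of all genes.

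**Figure D3:**
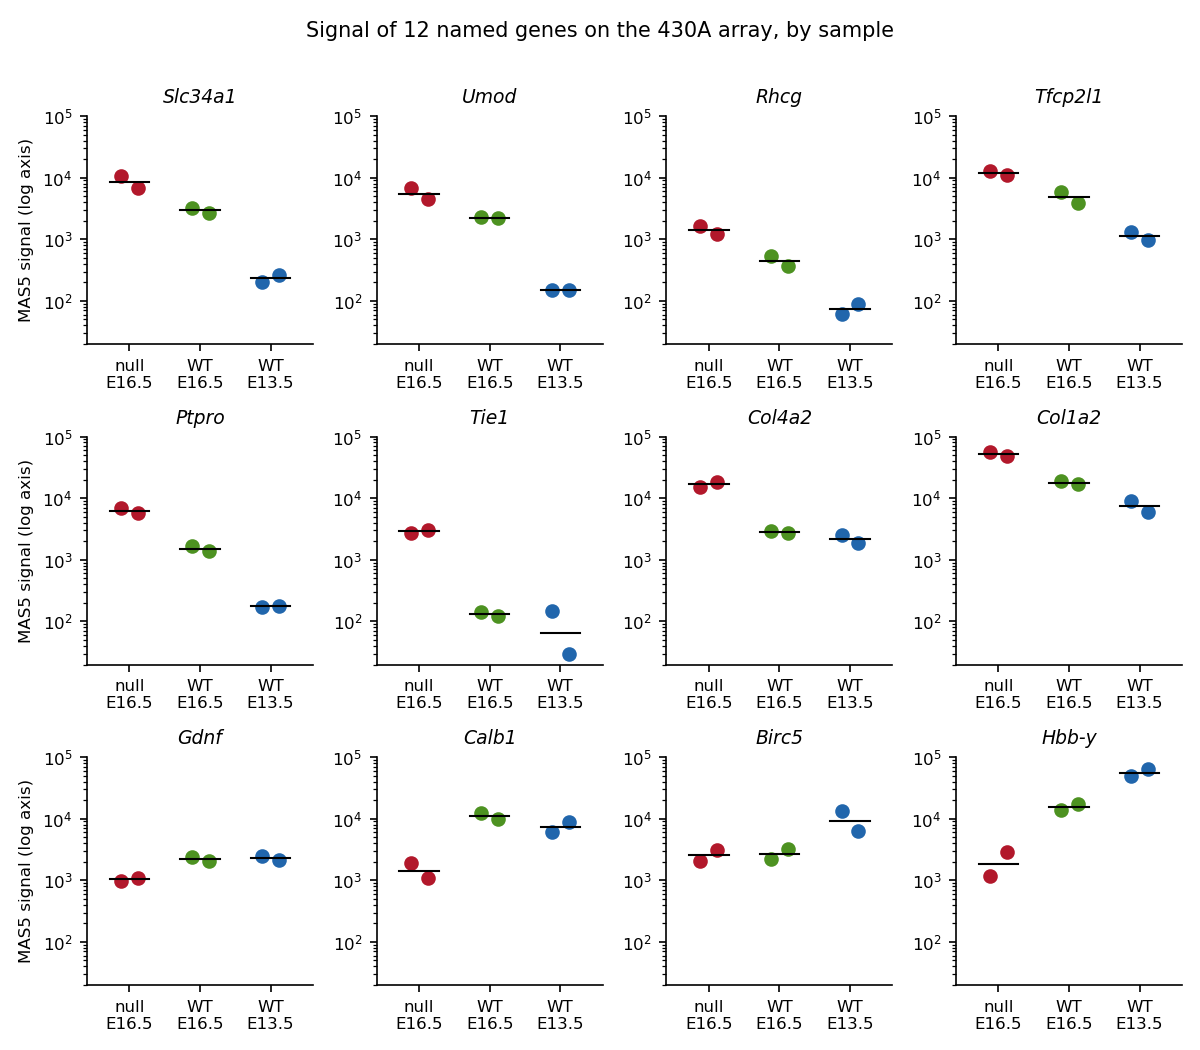
MAS5 signal (log axis) of 12 genes on 430A in null E16.5, WT E16.5 and WT E13.5 kidneys, 1 point per sample with the geometric mean as a bar. Slc34a1, Umod, Rhcg, Tfcp2l1 and Ptpro were higher in both E16.5 groups than at E13.5, Tie1 and Col4a2 were high in the nulls alone among these 3 groups, and Gdnf, Calb1 and Hbb-y were lowest in the nulls.

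Of 18 podocyte genes 9 rose and 0 fell, with a median of 0.79, beside 22.7% and 20.9% of all genes. Ptpro, the podocyte receptor phosphatase GLEPP1, had a signal of 6830.4 and 5752 in null E16.5 kidneys, against 170.4 and 181 in WT E13.5 kidneys (5.16 ± 0.29, adjusted p = 5.42e-07). Nphs1, nephrin of the slit diaphragm, had 1664 and 1620.1 in null E16.5 kidneys, against 159 and 323 in WT E13.5 kidneys (2.86 ± 0.36, adjusted p = 9.94e-05). Podxl, the sialomucin podocalyxin of podocyte foot processes, had 23571 and 17110.0 in null E16.5 kidneys, against 1331 and 1257 in WT E13.5 kidneys (3.96 ± 0.31). Both null samples exceeded both WT samples for each of them, and their replicates lay close together except for Nphs1 in WT. Synpo, a foot process actin protein, rose by 2.80 ± 0.48, and the 430B-read genes Col4a4, a collagen chain of the glomerular basement membrane, and Clic5, an actin-linked channel protein, rose by at least 4.45 ± 0.54, with 1 WT sample at the floor, and by 3.95 ± 0.45. Against WT E16.5 kidneys 6 podocyte genes were higher and 1 lower in null E16.5 kidneys, with a median of 0.33, beside 20.8% and 15.1% of all genes. In WT E16.5 against WT E13.5 kidneys 10 were higher and 0 lower, with a median of 1.01, beside 10.2% and 9.24%. Nphs1 had 387 and 345 and Ptpro 1648 and 1388 in WT E16.5 kidneys, below the null E16.5 samples in both cases (2.17 ± 0.36 and 2.05 ± 0.29 on the log2 scale).

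Early nephron genes, which mark renal vesicles and S-shaped bodies, rose in 10 of 16 and fell in 1, with a median of 1.29, beside 22.7% and 20.9% of all genes. Lhx1, a LIM homeobox gene needed for the renal vesicle, had 1374 and 1539 in null E16.5 kidneys, against 258 and 52.2 in WT E13.5 kidneys (at least 3.29 ± 0.61 with WT replicate 2 at the floor, adjusted p = 0.00121). The WT replicates were far apart, but both were below the nulls. Papss2, a sulfate activating enzyme, had 2397 and 2657 in null E16.5 kidneys, against 455 and 529.5 in WT E13.5 kidneys (2.36 ± 0.33), and Jag1, the Notch ligand, 2018 and 2009.7 in null E16.5 kidneys, against 475 and 790.5 in WT E13.5 kidneys (1.72 ± 0.39). Cdh6, a cadherin of the prospective proximal tubule, rose by 1.68 ± 0.35. Pou3f3, a POU domain factor of the loop and distal nephron read on 430B, rose by 1.52 ± 0.35 and was not called in a fit without 1 sample (1.06 without WT E13.5 replicate 2), and Greb1 rose by 1.71 ± 0.47, had a second probe set called lower and was not called without 1 sample (1.23 without null E16.5 replicate 2 and 1.26 without WT E13.5 replicate 1). The gene that fell was Dkk1, a secreted Wnt inhibitor chosen after its values were seen (687 and 712 in null E16.5 kidneys, against 2312 and 1024 in WT E13.5 kidneys, -1.14 ± 0.37). Dkk1 was not called in 3 of the 4 fits without 1 sample (-1.11 without null E16.5 replicate 1, -1.16 without null E16.5 replicate 2 and -0.55 without WT E13.5 replicate 1). This list was already higher in null E13.5 than in WT E13.5 kidneys, with 9 of 16 higher, 0 lower and a median of 1.18, beside 14.5% and 9.24% of all genes. Between null E16.5 and null E13.5 kidneys 0 were higher and 3 lower, beside 6.44% of all genes lower.

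Nephron progenitor genes went both ways, with 3 of 12 higher, 4 lower and a median of -0.62. Among all genes 22.7% were higher and 20.9% lower, so the share of rises was near that of all genes. Gdnf, the mesenchymal growth factor that draws out the ureteric bud, had 991 and 1075 in null E16.5 kidneys, against 2522 and 2143 in WT E13.5 kidneys (-1.17 ± 0.25, adjusted p = 0.00269). Six2, the factor that keeps progenitors undifferentiated and that was chosen after its values were seen, had 569.8 and 1014 in null E16.5 kidneys, against 1197 and 1495 in WT E13.5 kidneys (-0.82 ± 0.30, adjusted p = 0.0414). Neither gene overlapped between the groups, although Six2 was 1 of the weaker calls and was not called with the 4 samples alone (adjusted p = 0.164) or with the actin covariate (adjusted p = 0.0576), nor in 3 of the 4 fits without 1 sample (-0.40 without null E16.5 replicate 1, -0.98 without WT E13.5 replicate 1 and -0.65 without WT E13.5 replicate 2). Gdnf stood at 2345 and 2074 and Six2 at 1611 and 1336 in WT E16.5 kidneys, so null E16.5 kidneys were below both WT stages for both genes. Against WT E16.5 kidneys the differences were -1.10 ± 0.25 (adjusted p = 0.00459) and -0.95 ± 0.30 (adjusted p = 0.0255).

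Eya1, a phosphatase and coactivator of the mesenchyme read on 430B, had 3978 and 1788 in null E16.5 kidneys, against 9196 and 11927 in WT E13.5 kidneys (-1.97 ± 0.43) and was not called after median centring or with the actin covariate. Crym, a thyroid hormone binding protein, fell by 2.04 ± 0.51 and was not called without 1 sample (-1.50 without null E16.5 replicate 1 and -1.45 without WT E13.5 replicate 1). The count of progenitor genes that fell was 2 without null E16.5 replicate 1 and 2 without WT E13.5 replicate 1. Itga8, the integrin subunit of the mesenchyme that binds nephronectin, rose, with 800.1 and 987 in null E16.5 kidneys, against 124 and 205 in WT E13.5 kidneys (2.48 ± 0.42), and so did Sall1, a zinc finger factor of progenitors, with 387 and 578 in null E16.5 kidneys, against 65.7 and 69.1 in WT E13.5 kidneys, at least 5.49-fold as WT was at the floor. A second probe set was tested for each of Itga8 and Sall1 and was not called. Ncam1 rose by 0.83 ± 0.26 and was not called after median centring or without 1 sample (0.58 without null E16.5 replicate 2 and 0.59 without WT E13.5 replicate 2).

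Of 13 ureteric tip genes tested, 1 rose, which was Lhx1, and 0 fell, with a median of 0.09, beside 22.7% and 20.9% of all genes. Emx2, a homeobox gene read on 430B, had 6511 and 7929.6 in null E16.5 kidneys, against 6285 and 7230.3 in WT E13.5 kidneys (0.09 ± 0.39), and Spry1, an inhibitor of receptor tyrosine kinase signalling, had 3223 and 4784 in null E16.5 kidneys, against 2800.4 and 2137 in WT E13.5 kidneys (0.68 ± 0.29), and neither was called. Emx2 samples overlapped between the groups. The tip list had 2 rises without null E16.5 replicate 1, 2 rises and 1 fall after median centring, and 1 and 1 after quantile normalization. Ret, the receptor for GDNF at the tips, and Wnt11, a tip ligand that sustains Gdnf, both chosen after their values were seen, had 323 and 254 in null E16.5 kidneys, against 489 and 488 in WT E13.5 kidneys for Ret (-0.77 ± 0.33, adjusted p = 0.0737) and 894 and 1341 in null E16.5 kidneys, against 1842 and 1824 in WT E13.5 kidneys for Wnt11 (-0.74 ± 0.34, adjusted p = 0.0928). Neither was called, and they lay at the low end of the list. Of the 13 tip genes 7 had a log2 fold change above 0, among them Etv5 (0.58) and Gfra1 (0.43), also not called.

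**Figure D4:**
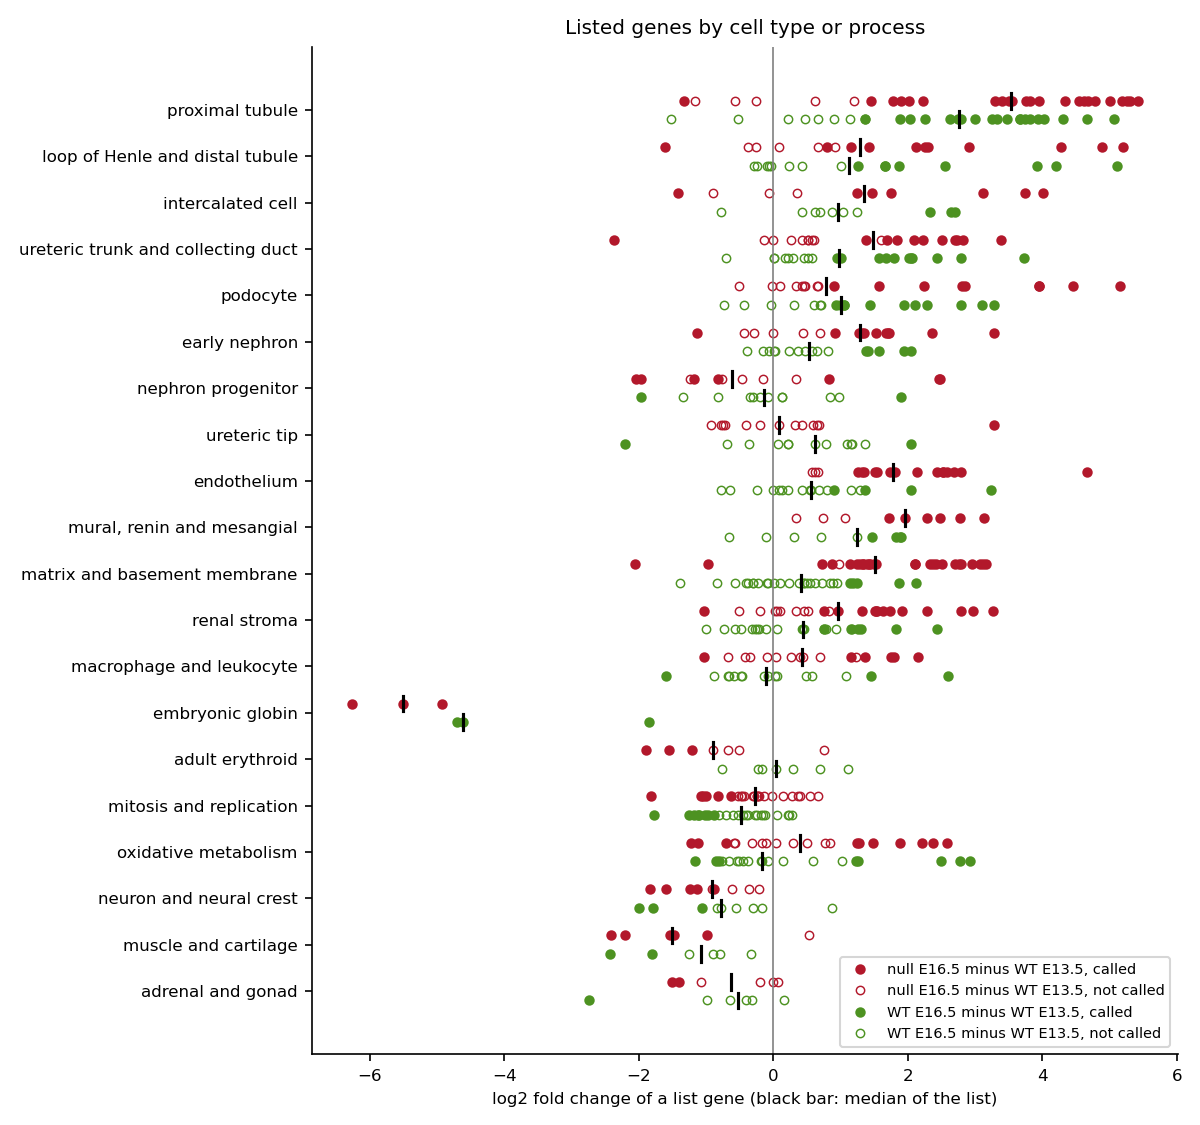
Log2 fold change of every tested member of 20 gene lists, for null E16.5 minus WT E13.5 (red, upper row of a list) and WT E16.5 minus WT E13.5 (green, lower row), with filled points for called genes, open points for genes not called and a black bar at the list's median. In both contrasts the proximal tubule members lie mostly above 0, with medians of 3.53 and 2.76, while the matrix members lie above 0 mainly in the red row, with medians of 1.51 and 0.42.

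Matrix and basement membrane genes were the list with the most members that rose, 25 of 28, with 2 that fell and a median of 1.51, beside 22.7% and 20.9% of all genes. Col4a2, a chain of the ubiquitous basement membrane collagen, had 15287 and 18570.0 in null E16.5 kidneys, against 2534 and 1851 in WT E13.5 kidneys (2.96 ± 0.23, adjusted p = 3.49e-06). Col6a1, of the microfibrillar collagen around cells, had 11982 and 15094 in null E16.5 kidneys, against 1761 and 1458 in WT E13.5 kidneys (3.07 ± 0.30, adjusted p = 1.92e-05). In both genes the null samples were higher than any WT sample at E13.5 and the replicates differed little.
Fbln5, an elastic fibre protein, had 9012 and 9842 in null E16.5 kidneys, against 1075 and 1023 in WT E13.5 kidneys (3.17 ± 0.25). Lox, the collagen cross-linking lysyl oxidase, rose by 3.12 ± 0.36, Lama1, the laminin alpha chain of early epithelial basement membranes, by 2.80 ± 0.33, and Fbln2, another fibulin, by 2.76 ± 0.45. The members that fell, both named after their values were seen, were Lama3, a laminin chain of stratified epithelia read on 430B (-2.06 ± 0.50), and Hspg2, perlecan (-0.98 ± 0.33). Lama3 was not called after quantile normalization or median centring, and Hspg2 was not called in any of the 4 fits without 1 sample (-1.12 without null E16.5 replicate 1, -0.84 without null E16.5 replicate 2, -1.06 without WT E13.5 replicate 1 and -0.90 without WT E13.5 replicate 2). Without null E16.5 replicate 2 the count that rose was 17.

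Unlike the tubule genes, the matrix genes differed little between WT stages. WT E16.5 kidneys had 5 of 28 above WT E13.5 and 0 below, with a median of 0.42, beside 10.2% and 9.24% of all genes. Null E16.5 kidneys, in contrast, had 20 above WT E16.5 and 0 below, with a median of 1.38, beside 20.8% and 15.1%. At E13.5 null kidneys already had 21 above WT and 1 below, with a median of 1.37, beside 14.5% and 9.24% of all genes. The Col4a2 signal was 9213 and 8179 in null E13.5 kidneys and 2885 and 2763 in WT E16.5 kidneys. Col6a1 had 5692 and 4496 in null E13.5 and 1672 and 1751 in WT E16.5 kidneys. For Fbln2 the nulls stood above WT E16.5 by 3.06 ± 0.45 (adjusted p = 0.000323), with 469 and 444 in WT E16.5 and 4058 and 1996 in null E13.5 kidneys.

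Endothelial genes rose in 15 of 18 and fell in 0, with a median of 1.77, beside 22.7% and 20.9% of all genes. Tie1, an orphan receptor of the angiopoietin system, had 2728 and 3034 in null E16.5 kidneys, against 148 and 29.1 in WT E13.5 kidneys (at least 4.67 ± 0.36 with WT replicate 2 at the floor, adjusted p = 2.65e-06). Kdr, the main VEGF receptor, had 12194 and 12796 in null E16.5 kidneys, against 1810.4 and 1785 in WT E13.5 kidneys (2.80 ± 0.30, adjusted p = 3.51e-05). Sox18, a transcription factor of vessels, had 6249 and 8135 in null E16.5 kidneys, against 1369.5 and 898 in WT E13.5 kidneys (2.68 ± 0.29). The null replicates lay within a narrow range for these genes, and only the WT replicates of Tie1 were far apart.
Eng, endoglin, rose by 2.53 ± 0.33, Vwf, von Willebrand factor, by at least 2.59 ± 0.43 with 1 WT sample at the floor, and Mmrn2, a vascular matrix protein read on 430B, by 2.53 ± 0.41, with another of its probe sets called lower. Against WT E16.5 kidneys 11 were higher and 1 lower, with a median of 1.32, beside 20.8% and 15.1% of all genes. WT E16.5 kidneys had 4 of 18 above WT E13.5 with a median of 0.55, beside 10.2%. In null E13.5 kidneys 13 were above WT E13.5 and 0 below, with a median of 1.31, beside 14.5% and 9.24% of all genes. Tie1 had 142 and 121 in WT E16.5 and 1455 and 1047 in null E13.5 kidneys, and the null E16.5 excess over WT E16.5 was 4.46 ± 0.36 (adjusted p = 1.27e-05). Genes of mural, renin and mesangial cells rose in 6 of 9 and fell in 0, with a median of 1.95, beside 22.7% and 20.9% of all genes. Tagln, a smooth muscle actin-binding protein, had 5609.6 and 3279 in null E16.5 kidneys, against 452 and 528 in WT E13.5 kidneys (3.13 ± 0.39), and Cspg4, the pericyte proteoglycan NG2, rose by 2.77 ± 0.45 and Mcam by 1.95 ± 0.35. Agtr1a, an angiotensin receptor read on 430B, rose by 1.72 ± 0.41 and was not called without 1 sample (1.08 without null E16.5 replicate 1).

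Of 23 renal stroma genes 13 rose and 1 fell, with a median of 0.97, beside 22.7% and 20.9% of all genes. Col1a2, a fibrillar collagen chain, had 55721 and 47618 in null E16.5 kidneys, against 9134 and 6064 in WT E13.5 kidneys (2.79 ± 0.24, adjusted p = 6.44e-06). Penk, the opioid precursor proenkephalin, which marks medullary stroma, had 8414 and 13597 in null E16.5 kidneys, against 1502 and 819 in WT E13.5 kidneys (3.27 ± 0.52, adjusted p = 0.000424). Both genes had every null sample above every WT sample. Dcn, the small proteoglycan decorin, rose by 2.97 ± 0.54, with a second probe set called lower, Acta2, smooth muscle actin, by 2.28 ± 0.26, and Col1a1 by 1.92 ± 0.44. The imprinted Notch-like protein Dlk1 had 3394 and 12166 in null E16.5 kidneys, against 2281 and 1619 in WT E13.5 kidneys (1.74 ± 0.48), where null replicate 2 was far above replicate 1, and it was not called without 1 sample (0.82 without null E16.5 replicate 2 and 1.49 without WT E13.5 replicate 2). The stromal count that rose was 8 without null E16.5 replicate 2 and 8 without WT E13.5 replicate 2. Foxd1, the regulator of cortical stroma, and Pdgfrb, a receptor of perivascular stroma, both chosen after their values were seen, were not called (0.05 ± 0.33 and 0.33 ± 0.42). Aldh1a2, the retinoic acid synthesising enzyme, was the member that fell and was likewise chosen afterwards (2598 and 2771 in null E16.5 kidneys, against 5591 and 5328 in WT E13.5 kidneys, -1.02 ± 0.22). Stromal genes were also higher in null E13.5 than in WT E13.5 kidneys in 12 of 23, with a median of 1.08, beside 14.5% of all genes.

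Embryonic globins were the largest fall. All 3 measured members fell, with a median of -5.50, and did so under each scaling and without any 1 sample. Hbb-y, the embryonic epsilon-like globin, had 1195 and 2853 in null E16.5 kidneys, against 49240.0 and 63432 in WT E13.5 kidneys (-4.92 ± 0.32, adjusted p = 1.04e-06). Hba-x had 117 and 247 in null E16.5 kidneys, against 17448 and 9885 in WT E13.5 kidneys (-6.27 ± 0.40, adjusted p = 8.92e-07). Hbb-bh1, the embryonic beta-like globin, had 78.5 and 37.9 in null E16.5 kidneys, against 6396 and 2380.3 in WT E13.5 kidneys, and as both nulls were at the floor it was at least 45.3-fold lower in them. No sample of one group came near the other. WT E16.5 kidneys were also low, with 3 of 3 below WT E13.5 and a median of -4.61, and null E16.5 kidneys were lower still for Hbb-y, which had 13787 and 17454 in WT E16.5 kidneys (-3.07 ± 0.32, adjusted p = 6.17e-05). Null E13.5 kidneys had 22723 and 27015. Of 7 adult erythroid genes 3 fell and 0 rose, with a median of -0.90, beside 20.9% of all genes lower and 22.7% higher. Among those that fell was Ank1, the red cell membrane ankyrin (138 and 263 in null E16.5 kidneys, against 669 and 749 in WT E13.5 kidneys, -1.90 ± 0.34). Klf1, the erythroid master regulator, and Add2, an adducin, were the other two and were not called without 1 sample (-1.24 without null E16.5 replicate 2 and -1.27 without WT E13.5 replicate 1 for Klf1, -1.06 without null E16.5 replicate 1 and -0.97 without WT E13.5 replicate 2 for Add2).

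Of 24 mitosis and replication genes 6 fell and 0 rose, with a median of -0.27. Among all genes 20.9% fell and 22.7% rose, and of those read on 430A, as 23 of these were, 1509 of 8886 fell. The share of falls was thus not far above that of all genes. Of the falls, 2 held under all 3 scalings, those of Birc5 and Rrm2. Birc5, survivin, had 2086 and 3156 in null E16.5 kidneys, against 13110.0 and 6215 in WT E13.5 kidneys (-1.81 ± 0.38, adjusted p = 0.00237), and Rrm2, a ribonucleotide reductase subunit, had 8009 and 6417 in null E16.5 kidneys, against 12852 and 16944 in WT E13.5 kidneys (-1.04 ± 0.24, adjusted p = 0.00474). Cdc20, Cdk1, Ccnb2 and Pcna fell by 1.07, 1.00, 0.82 and 0.63 on the log2 scale with the deposited scaling, and each lost its call after quantile normalization and in a fit without at least 1 of the samples. Without null E16.5 replicate 1 the count that fell was 2, and without WT E13.5 replicate 2 it was 3. Null E16.5 kidneys had 6 of these genes above WT E16.5 and 0 below, with a median of 0.14, near the 20.8% of all genes higher. WT E16.5 kidneys had 0 above and 8 below WT E13.5, with a median of -0.49, beside 9.24% of all genes lower. Birc5 had 2179.7 and 3209.5 in WT E16.5 kidneys, close to the null E16.5 samples.

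Growth and patterning genes were mixed, beside 22.7% of all genes higher and 20.9% lower. With the deposited scaling the imprinted and Hox lists lay below both shares. Of 6 oncofetal genes 2 rose and 2 fell. Hmga2, a chromatin protein of early embryonic growth, had 1273 and 1013 in null E16.5 kidneys, against 3146 and 7716 in WT E13.5 kidneys (-2.12 ± 0.40, adjusted p = 0.00125), and Dppa5a, a pluripotency-associated RNA-binding protein, had 178 and 129 in null E16.5 kidneys, against 397 and 655 in WT E13.5 kidneys (-1.75 ± 0.34). The rises were Igf2bp3 and Trim71. Igf2bp3 was not called after quantile normalization or median centring or in 3 of the 4 fits without 1 sample (0.77 without null E16.5 replicate 1, 0.61 without null E16.5 replicate 2 and 0.56 without WT E13.5 replicate 1), and other Igf2bp3 probe sets were called lower. Trim71, read on 430B with 1 WT sample at the floor, was not called in any of the 4 fits without 1 sample (2.24 without null E16.5 replicate 1, 1.36 without null E16.5 replicate 2, 1.88 without WT E13.5 replicate 1 and 1.72 without WT E13.5 replicate 2) or with the actin covariate, the scan day block or the replicate block. Of 12 imprinted growth genes 2 rose and 1 fell, against 4 and 0 after quantile normalization, 1 and 2 without null E16.5 replicate 2, and 1 and 2 without WT E13.5 replicate 2. Igf2r, the receptor that clears IGF2, had 8322 and 7836 in null E16.5 kidneys, against 2445 and 2112 in WT E13.5 kidneys (1.83 ± 0.24, adjusted p = 0.000133), with no overlap, and Ndn, necdin, fell by 0.94 ± 0.26 but was not called after quantile normalization or without 1 sample (-0.63 without null E16.5 replicate 1 and -0.83 without WT E13.5 replicate 1).
Of 22 Hox genes other than the group 11 genes 4 rose and 2 fell, beside 22.7% and 20.9% of all genes. Hoxa10, the neighbour of Hoxa11 in the cluster, had 1526 and 1869 in null E16.5 kidneys, against 3796 and 4385 in WT E13.5 kidneys (-1.27 ± 0.31, adjusted p = 0.00576). Hoxd13, read on 430B, fell by 2.73 ± 0.57, whereas Hoxc10, also on 430B, rose by 1.86 ± 0.33 and Hoxd8 by 1.41 ± 0.30. Hoxa5 and Hoxb3 rose 2.84-fold and 3.05-fold, but Hoxa5 has a second probe set called lower and both were not called without 1 sample (1.14 without null E16.5 replicate 2 and 0.98 without WT E13.5 replicate 2 for Hoxa5, 1.16 without null E16.5 replicate 2 and 0.55 without WT E13.5 replicate 1 for Hoxb3). Hoxb3 was also not called after quantile normalization, and without null E16.5 replicate 2 the list had 2 rises.

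Of 20 oxidative metabolism genes 7 rose and 3 fell, with a median of 0.39, beside 22.7% and 20.9% of all genes. The list had 3 rises and 0 falls without null E16.5 replicate 1, without WT E13.5 replicate 1 it had 4 and 0, and without WT E13.5 replicate 2 it had 4 and 2, and quantile normalization gave 9 and 1. Cpt1a, which admits fatty acids to mitochondria, had 3884 and 3989.6 in null E16.5 kidneys, against 801 and 543 in WT E13.5 kidneys (2.58 ± 0.27, adjusted p = 2.92e-05), and Ehhadh, a peroxisomal beta-oxidation enzyme, had 723 and 345 in null E16.5 kidneys, against 102 and 90.4 in WT E13.5 kidneys (2.38 ± 0.36). Ppara (430B, with 1 WT sample at the floor), Ppargc1a, Acadm and Cpt2 rose by 1.28 to 2.22 on the log2 scale, with another Cpt2 probe set called lower, but they lost the call in at least 1 fit that left out a sample. The falls, named after their values were seen, were Cox6c (-1.22), Ndufa4 (-1.12) and Cox4i1 (-0.70). Without WT E13.5 replicate 1 these were -0.87, -0.65 and -0.52 and not called. Ndufa4 and Cox4i1 also lost the call after quantile normalization. Of the 20 genes 12 lay above 0. Cs (-0.59) and Sdhb (-0.57), likewise chosen afterwards and not called, were among those below. Of 12 immediate early and heat shock genes 6 rose and 0 fell, with a median of 1.04, beside 22.7% and 20.9% of all genes. After median centring 6 rose and 2 fell. Of the 12 genes 10 lay above 0. Hsph1 (-0.85) and Dnajb1 (-0.65), chosen after their values were seen, lay below it and were not called. The stress chaperone Hspa1b had 2029.8 and 2636 in null E16.5 kidneys, against 744 and 443 in WT E13.5 kidneys (2.01 ± 0.31), and Dusp1, a phosphatase induced by stress, had 2410.5 and 3257 in null E16.5 kidneys, against 1212 and 947 in WT E13.5 kidneys (1.39 ± 0.26). WT E16.5 kidneys also had 6 of these 12 above WT E13.5, with a median of 0.84, beside 10.2% of all genes. Null E16.5 kidneys had 1 above and 1 below WT E16.5, beside 20.8% and 15.1% of all genes.

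Markers of tissues beside the kidney were read as 3 lists. Of 9 neuron and neural crest genes 5 fell, of 6 muscle and cartilage genes 5 fell, of 6 adrenal and gonad genes 2 fell, and 0 rose in any of the 3 lists, beside 20.9% of all genes lower. The count of neuron genes that fell was 3 without null E16.5 replicate 2 and 2 without WT E13.5 replicate 2. That of muscle and cartilage genes was 3 without null E16.5 replicate 1, null E16.5 replicate 2 or WT E13.5 replicate 2, and 4 with 1 rise without WT E13.5 replicate 1, and that of adrenal and gonad genes was 1 without null E16.5 replicate 2. Th, the catecholamine enzyme tyrosine hydroxylase, had 165 and 109 in null E16.5 kidneys, against 397 and 576 in WT E13.5 kidneys (-1.83 ± 0.36, adjusted p = 0.00178). Tnnc1, a cardiac and slow muscle troponin, had 141 and 138 in null E16.5 kidneys, against 662 and 834 in WT E13.5 kidneys (-2.41 ± 0.34, adjusted p = 0.000197). Star, the steroidogenic cholesterol carrier, had 204 and 228 in null E16.5 kidneys, against 538 and 599.7 in WT E13.5 kidneys (-1.40 ± 0.28). These signals lie low on the array scale but do not overlap. The other adrenal and gonad gene that fell was Nr5a1 (-1.50), which was -1.29 and not called without null E16.5 replicate 2. The rest of that list was not called, with Mc2r at -1.07, Inha at -0.20, Cyp21a1 at -0.0058 and Cyp11a1, read on 430B, at 0.066.
The summed 430A signal of the neuron list was 2598 and 1912 in null E16.5 kidneys, against 3943 and 4342 in WT E13.5 kidneys. For muscle and cartilage it was 1580.1 and 2025 in null E16.5 kidneys, against 3580.2 and 3534 in WT E13.5 kidneys, and for adrenal and gonad 2148 and 1705 in null E16.5 kidneys, against 2823 and 3425 in WT E13.5 kidneys. No member of the 3 lists was at the floor in both samples of either group, and the part of such tissue in the other results was not tested. Macrophage and leukocyte genes rose in 5 of 16 and fell in 1, with a median of 0.42, beside 22.7% and 20.9% of all genes. Csf1r, the receptor of the macrophage growth factor CSF1, had 5959 and 7296 in null E16.5 kidneys, against 1604 and 1378 in WT E13.5 kidneys (2.15 ± 0.24, adjusted p = 3.95e-05), and Cx3cr1, the fractalkine receptor, 483 and 539 in null E16.5 kidneys, against 144 and 159 in WT E13.5 kidneys (1.76 ± 0.42). The other rises were Ptprc (1.79), C1qa (1.36) and Cd14 (1.16), and the fall was C1qb (-1.04). Without WT E13.5 replicate 2, C1qa was 0.65 and Cd14 0.26. Ptprc was 1.51 without null E16.5 replicate 2, and C1qb -0.46 without WT E13.5 replicate 1. None of these was called in those fits. Of the 16 genes 11 lay above 0. Aif1 (-0.67), Cd68 (-0.41) and Tyrobp (-0.35), chosen after their values were seen, lay below it and were not called. Without null E16.5 replicate 2 the macrophage count that rose was 2, and without WT E13.5 replicate 2, after quantile normalization and after median centring it was 3. The count that fell was 0 in the fits without null E16.5 replicate 1, null E16.5 replicate 2 or WT E13.5 replicate 1.

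Beyond the lists, the largest rises included genes of proximal tight junctions and the brush border. Of the 12 largest, Cldn2, the cation and water pore of proximal tight junctions, had 17407 and 7779 in null E16.5 kidneys, against 189.9 and 61.9 in WT E13.5 kidneys (at least 6.51 ± 0.46 with WT replicate 2 at the floor, adjusted p = 1.82e-06). Hdc, which makes histamine, had 4564 and 5000.5 in null E16.5 kidneys, against 40.6 and 27.6 in WT E13.5 kidneys, at least 55.5-fold higher with WT at the floor. Mep1b, a brush border metalloprotease, had 9579.8 and 1962 in null E16.5 kidneys, against 15.1 and 20.4 in WT E13.5 kidneys, at least 50.4-fold higher. Genes of this ranking were taken only where the groups did not overlap, so their separation is not a further result. The Mep1b replicates of the nulls differed widely.
Hao2, a peroxisomal hydroxyacid oxidase, rose by 5.52 ± 0.31 and Aadat, an aminotransferase of lysine and tryptophan breakdown, by 5.23 ± 0.33. On 430B, Tmem25 had 33800.0 and 28930.0 in null E16.5 kidneys, against 362 and 306 in WT E13.5 kidneys (6.55 ± 0.31, adjusted p = 9.77e-08), Gpr160, an orphan receptor, rose by 5.61 ± 0.48, and Nceh1, a cholesterol ester hydrolase, and Gsdmc2, of the gasdermin family, were at least 56-fold and 46.6-fold higher with WT at the floor of 147.3. Among genes with several called probe sets, all one way, were Mep1a, the partner of Mep1b (18680.0 and 10687 in null E16.5 kidneys, against 580.1 and 674 in WT E13.5 kidneys, 4.50 ± 0.29), Fxyd2, the gamma subunit of the sodium pump (4.45 ± 0.31), and Sostdc1, a secreted BMP and Wnt modulator (4.13 ± 0.61). Tmem174 (430B), Abca3, Bicc1, Timp3, an inhibitor of matrix proteases, and Gpc4, a glypican, rose by 3.30 to 4.18 on the log2 scale.

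Falls outside the globins were led by genes that belong to no list. Snhg1, a noncoding host gene of small nucleolar RNAs, had 396 and 493 in null E16.5 kidneys, against 8330.1 and 11768 in WT E13.5 kidneys (-4.49 ± 0.48, adjusted p = 3.37e-05), and all 5 of its tested probe sets fell. Fkbp3, a nuclear FK506-binding protein, had 989.8 and 1139 in null E16.5 kidneys, against 12326 and 14845 in WT E13.5 kidneys (-3.67 ± 0.27, adjusted p = 2.28e-06), with both of its probe sets lower. Ssbp1, the mitochondrial single-stranded DNA binding protein, had 1149.6 and 1064 in null E16.5 kidneys, against 9275 and 24039 in WT E13.5 kidneys (-3.76 ± 0.46), and all 4 of its probe sets fell. These falls too were taken only from genes whose groups did not overlap, and the WT replicates of Ssbp1 were more than 2-fold apart.
Serf1 had 144 and 282 in null E16.5 kidneys, against 3362 and 2782 in WT E13.5 kidneys (-3.92 ± 0.39) and Tmem267 132 and 102 in null E16.5 kidneys, against 1519.8 and 1538 in WT E13.5 kidneys (-3.72 ± 0.35). Gm9222 fell by 3.63 ± 0.52, with widely spaced WT replicates (1487 and 6311). On 430B, Spata3, with 1 null sample at the floor, and the phosphodiesterase Pde11a fell by 3.82 ± 0.41 and 3.71 ± 0.56, and 4933438K21Rik was at least 36.4-fold lower, with the nulls at the floor. Among genes with several probe sets, Car3, a carbonic anhydrase, fell by 2.51 ± 0.36, and the 430B-read Fbxw16, Slc16a14, 4933406K04Rik and Cenpw fell by 3.21, 3.03, 2.72 and 2.51, with 1 null sample of Fbxw16 and of Slc16a14 at the floor. Rpl41 had 2 probe sets called lower, while the one read for it was not called (-0.69, adjusted p = 0.0803).

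The 2 null E16.5 samples differed from each other by segment. For proximal tubule genes replicate 1 was above replicate 2 in 28 of 28 genes, with a median log2 difference of 0.77, and for intercalated cell genes in 10 of 10, with a median of 0.45. For early nephron genes replicate 1 was above in 1 of 16, with a median of -0.40, and for nephron progenitor genes in 2 of 12, with a median of -0.52. Over all tested 430A probe sets with 1 gene, replicate 1 was above in 48.0%, with a median of -0.02. In the WT E13.5 samples replicate 1 was above in 8 of 28 proximal tubule genes, 5 of 10 intercalated cell genes, 8 of 16 early nephron genes and 6 of 12 nephron progenitor genes.
The summed 430A signal of the proximal tubule list was 136260 and 78059 in null E16.5 kidneys, against 8335 and 9025 in WT E13.5 kidneys, so replicate 2, though lower, was still far above both WT samples. Without null E16.5 replicate 1 the proximal tubule count that rose was 21, and without replicate 2 it was 24. The early nephron sum was 33827 and 44067 in null E16.5 kidneys, against 29193 and 29194 in WT E13.5 kidneys. These differences were between 2 samples and have no test.

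**Figure D5:**
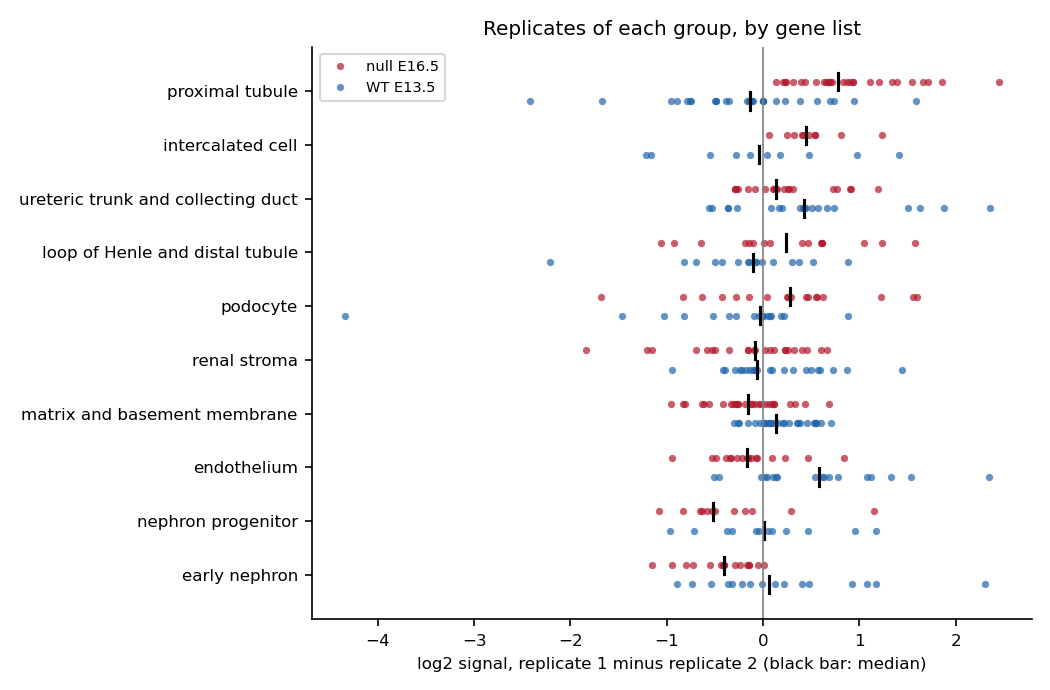
Log2 signal of replicate 1 minus replicate 2 for each tested gene of 10 lists, in null E16.5 (red, upper row of a list) and WT E13.5 kidneys (blue, lower row), with a black bar at the median. All 28 proximal tubule and all 10 intercalated cell points of the nulls lie right of 0, and 15 of 16 early nephron points lie left of it.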

How the data were processed

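Whole kidneys were measured on Affymetrix 430A and 430B arrays. The deposited values are MAS5 signal intensity per probe set on a linear scale, made with MAS5 per the submitters' processing notes; the authors had scaled each array to an equal trimmed mean, as the values show. MAS5 settings, detection calls and depth are not part of such values, and 2 arrays per group and design limit the precision. Intensity was raised to a floor, the 20th percentile of its design (86.1 for 430A, 147.3 for 430B), and log2 transformed, and a probe set was tested if a group mean lay above the 50th percentile. Control probe sets (64 per design) and 430B copies of 100 probe sets present on both designs were left out.

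limma 3.58.1 (R 4.3.3) fitted each design on its 14 arrays with 1 mean for every group, 7 residual degrees of freedom and a mean-variance trend. Tests were two-sided, with Benjamini-Hochberg adjustment over both designs. On simulated data with this comparison's sample sizes (31256 probe sets), the fit called 8 of 100 true log2 changes of 1, 61 of 100 of 2, and 8 of 31056 unchanged probe sets. Far fewer probe sets were changed there than the 42.9% called here, which makes the adjusted threshold stricter in the simulation. These shares therefore do not give the power or the false calls of this comparison. An uncalled gene may still differ. A gene was read by 1 probe set with 1 symbol in the annotation given (20393 on 430A, 14674 on 430B), 430A before 430B, then by the highest mean level. A signal at the floor in both samples of the lower group gives a bound.

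The comparison, its members and the 24 gene lists were chosen with earlier results of these data known. The rule for named genes took the 12 largest rises and falls, 10 of each with several called probe sets, and up to 6 called members per list, or with fewer than 2 calls the 2 members of highest mean signal, an order across probes that carries no level. Alternatives were other scalings, floors, filters and fits, and leaving out each sample. Same-numbered samples are not paired by the labels. Listed genes without a tested probe set were not analysed here. Tables and figures were made with Python 3.11.15, pandas 2.3.3 and matplotlib 3.10.9.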

Additional observations from a re-analysis of the deposited data

How the results depend on the processing

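With the fit, filter and scaling changed one at a time, the 13138 calls between null E16.5 and WT E13.5 kidneys became 8492 with the 4 samples alone and 8378 with the actin ratio as a covariate, and 8749 to 11352 without 1 sample. Lower calls on 430B (4754) became 1911 after quantile normalization, 848 after median centring, 3026 with a filter at the 70th percentile, 2566 with the 4 samples alone, 2451 with the actin covariate and 3009 to 3935 without 1 sample. Higher calls on 430B (1773) became 4380 after median centring, 1176 with the 4 samples alone, 1046 with the actin covariate and 1136 to 1676 without 1 sample. On 430A, lower calls (2784) ranged from 1845 to 2348 and higher calls (3827) from 2610 to 3393 without 1 sample. The median absolute log2 difference on 430A (0.82) was 0.74 with an offset in place of the floor, 0.70 with a floor at the 40th percentile, 0.64 without a filter and 0.78 to 0.89 without 1 sample. On 430B (1.04) it was 0.77 after quantile normalization, 0.89 after median centring, 0.90 with the offset, 0.77 with the higher floor, 0.88 without a filter, 0.97 with the stricter filter and 1.04 to 1.16 without 1 sample. The 4-sample and left-out-sample fits rest on fewer samples; for the scalings, filters and the actin covariate the cause was not tested. With the replicate block 12692 probe sets were called, and 4 named genes lost their call. They were Trim71, Col9a1, C1qa and Cd14, the last 2 of which were also not called after quantile normalization or median centring. The numbers only name the samples, and the deviations of same-numbered samples correlated at -0.35 on 430A and -0.02 on 430B across probe sets. Of 153 named genes 111 lost no call and kept their direction in every alternative that tested them. Emx2, not called, changed sign: -0.34 after quantile normalization, -0.75 with the actin covariate, and -0.050 to 0.23 without 1 sample.

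The comparison has 2 samples a group, and a gene that was not called may still differ. Scan day, scanner, pooling of embryos and strain go with the groups and no alternative separates them. A random block for scan day left the counts of called probe sets within 1.5 times of those above. With it 4 list counts moved by more, and 9 named genes lost the call. Macrophage rises went from 5 to 3 and falls from 1 to 0. Muscle and cartilage falls went from 5 to 3, and oncofetal rises from 2 to 1. Low signals near the floor carry no order, and changes of genes at the floor are bounds.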
